A study of Mus musculus with 10 samples.

Results

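The Notch receptors, ligands and Hes effectors were 10 genes of one signalling pathway: the receptor genes Notch1, Notch2 and Notch3, the ligand genes Dll1, Dll3 and Jag1, and the effector genes Hes1, Hes5, Hey1 and Nrarp. They were taken by name: a probe set had to name exactly 1 gene symbol that equalled a member, and where several did, the brightest on average stood for the gene. All 10 were found among 19938 genes, each with 1 probe set. Forebrain RNA from 10 mouse embryos at E12.5 was measured on 1 Affymetrix array per embryo. In the 5 embryos labelled dtg, called transgenic here, a constitutively active FoxO3 was expressed from the CaMKIIa promoter, described as forebrain-specific. The 5 embryos labelled stg served as controls. The labels spell out neither abbreviation, so which transgene the controls carry, if any, is not given in the sources used here. Luciferase activity was also measured in the study, and its values were not used here. All embryos had a CD1/NMRI mixed background and came from 2 dams sacrificed 12 days after the plug. Which embryo came from which dam is not given, so litter and genotype cannot be told apart. The RNA came from a part of each forebrain, which had been cut away from most of the thalamus.

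Notch signalling passes between touching cells. A Delta or Jagged ligand on one cell leads to cleavage of the Notch receptor on its neighbour, and the freed intracellular domain joins the DNA-binding protein RBPJ to switch on Hes and Hey genes. Their products are transcriptional repressors that hold proneural genes such as Neurog2 in check, and in the embryonic forebrain this keeps radial glia, the neural progenitors, from differentiating. Cells that escape it turn on proneural factors, which in turn raise Dll1 and Dll3.

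Promoter sequences are shown for the target genes Hes5 and Nrarp, which report pathway activity, and for Dll3, whose difference between the groups was the largest among members with a promoter entry. Each run is the 250 bases before the RefSeq start in GRCm38.p6, 5′ to 3′ on the gene's strand, and capitals mark the RBPJ motif GTGGGAA or its reverse complement TTCCCAC. Entries were matched for 8 of the 10 members, all but Hes1 and Hey1.
Hes5, chr4:154960673-154960922, plus strand: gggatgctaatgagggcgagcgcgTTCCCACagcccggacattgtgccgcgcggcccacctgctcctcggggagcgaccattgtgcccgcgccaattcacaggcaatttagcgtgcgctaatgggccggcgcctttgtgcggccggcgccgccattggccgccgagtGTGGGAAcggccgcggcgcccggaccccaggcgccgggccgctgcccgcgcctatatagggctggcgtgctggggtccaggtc
Nrarp, chr2:25180508-25180757, plus strand: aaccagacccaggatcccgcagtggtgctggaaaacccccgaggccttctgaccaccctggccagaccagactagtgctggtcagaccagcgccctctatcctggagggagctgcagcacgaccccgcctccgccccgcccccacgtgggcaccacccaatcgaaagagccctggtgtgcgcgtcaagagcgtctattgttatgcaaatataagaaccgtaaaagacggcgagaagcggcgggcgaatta
Dll3, chr7:28301786-28302035, minus strand: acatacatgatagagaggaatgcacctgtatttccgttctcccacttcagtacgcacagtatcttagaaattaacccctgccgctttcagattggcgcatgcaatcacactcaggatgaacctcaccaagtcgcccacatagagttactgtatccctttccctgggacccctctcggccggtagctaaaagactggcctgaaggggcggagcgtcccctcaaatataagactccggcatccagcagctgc
Hes5 held 2 matches to GTGGGAA, on opposite strands, from 226 to 220 and from 83 to 77 bases before the start. No other matched member held one in this window, against 5.42% of the 32851 promoter windows in the table. The shorter core TGGGAA, which lies within GTGGGAA, occurred in 21.6% of all windows and, among the matched members, in Hes5 alone, at the same places. The FOXO motif GTAAACA, or TGTTTAC on the other strand, occurred in 3.17% of all windows and in 0 of the 8 matched members. A match describes letters only, and the arrays measured no binding.

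The deposited values were log2 intensities with array medians between 5.36 and 5.39. Control embryo 5 stood apart, with a mean Pearson correlation with the other arrays across genes of 0.985 against 0.9918 to 0.9933 for the other 9. Foxo3 itself read 0.34 ± 0.085 higher in transgenic embryos (SE, n = 5 per group; limma adjusted p = 0.218), and whether its probes cover the transgene is not given. Across all genes 21 passed limma at an adjusted p below 0.05. The number of arrays limits the precision, and p-values measure the spread between these embryos.

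No member passed the test: 0 of 10 had an adjusted p below 0.05 in limma, beside 0.105% of all genes, and the smallest adjusted p among members was 0.324. At an unadjusted p below 0.05 there were 2, Hey1 with a lower and Dll3 with a higher mean in transgenic embryos, beside 7.58% of all genes, of which 4.1% were higher and 3.48% lower. The groups overlapped for all 10 members, as they did for most genes: 1.6% of all genes had ranges that did not overlap. The mean was higher in transgenic embryos for 4 members and lower for 6, beside 48.1% and 51.9% of all genes. The median log2 difference over the members was -0.039 and their median absolute difference was 0.089, beside -0.0038 and 0.06 over all genes. The median within-group SD was 0.14 for the members and 0.12 over all genes. In tissue RNA, fewer cells that express a gene and less RNA per cell cannot be told apart.

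**Figure D1:**
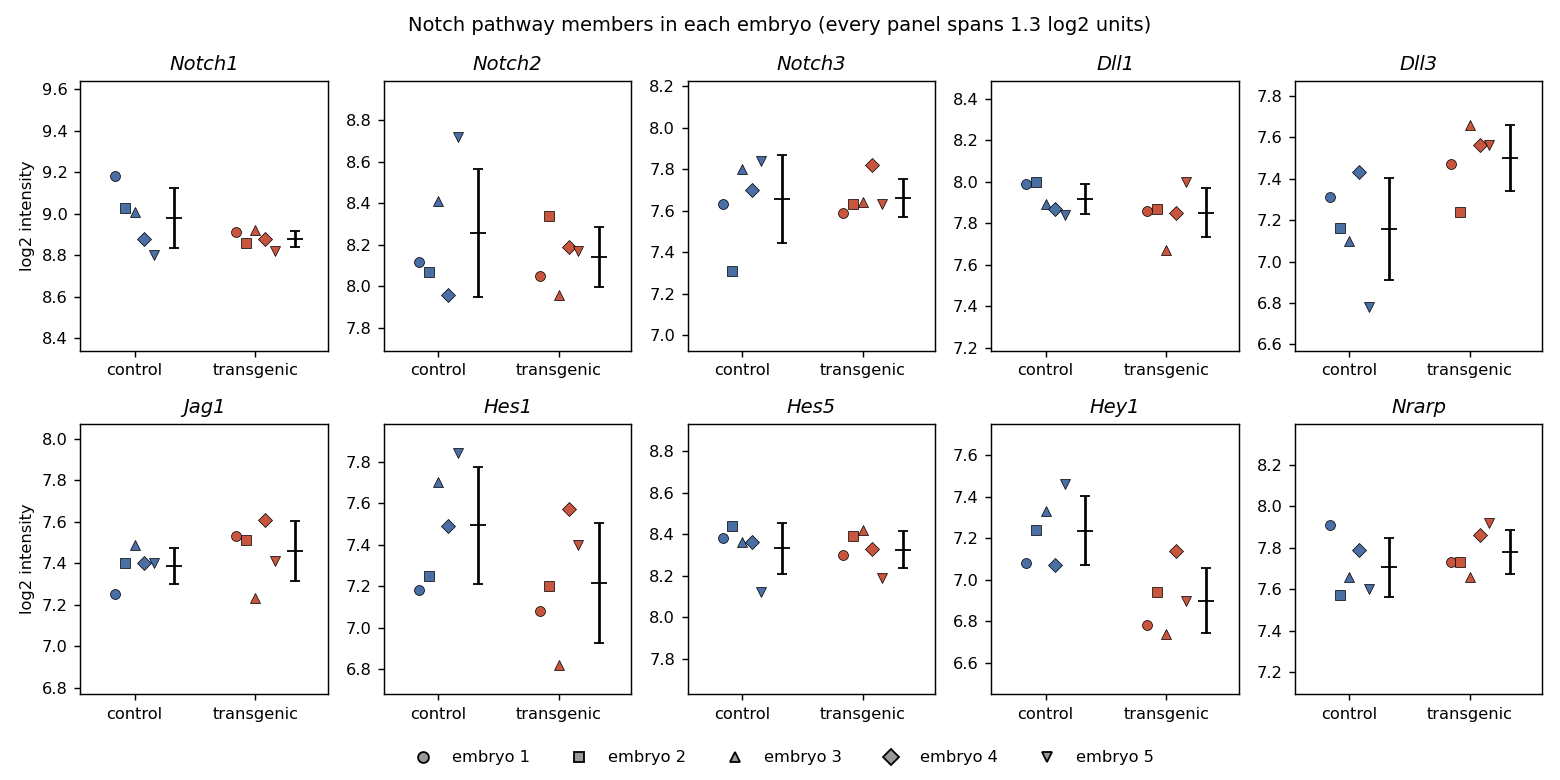
Log2 intensity (vertical axis) of each member in the 5 control and 5 transgenic embryos, with a symbol for each embryo number and, to the right of each group, the mean and SD. Hey1 lay below all controls in 4 of 5 transgenic embryos and Dll3 above all controls in 4 of 5, while the groups overlapped in every panel.

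Notch1 encodes a receptor of neural progenitors and of blood vessels. Its log2 intensities in transgenic embryos 1 to 5 were 8.91, 8.86, 8.92, 8.88 and 8.82, and in control embryos 1 to 5 they were 9.18, 9.03, 9.01, 8.88 and 8.80. Controls 1 to 3 lay above every transgenic embryo, and control embryo 5 below all of them. The difference was -0.10 ± 0.07 (SE, n = 5 per group; limma adjusted p = 0.802), with a 95% confidence interval from -0.26 to 0.049. The SD was 0.042 in transgenic and 0.15 in control embryos. Without control embryo 5 the difference was -0.15 (limma unadjusted p = 0.0429, adjusted p = 0.725), and without control embryo 1 it was -0.053 (unadjusted p = 0.416).

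Notch2 encodes a second progenitor receptor. It read 8.05, 8.34, 7.96, 8.19 and 8.17 in the transgenic embryos and 8.12, 8.07, 8.41, 7.96 and 8.72 in the controls. The high values were those of controls 3 and 5, and the remaining controls lay within the transgenic range. The difference of -0.11 ± 0.13 became 0.001 without control embryo 5 (95% interval with all embryos from -0.40 to 0.17).

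Notch3 encodes a receptor best known from the mural cells of blood vessels and also made by progenitors. Its values were 7.59, 7.63, 7.64, 7.82 and 7.63 in transgenic and 7.63, 7.31, 7.80, 7.70 and 7.84 in control embryos. The transgenic embryos all lay inside the control range, and the difference was 0.007 ± 0.094, with a 95% interval from -0.20 to 0.21. Its sign turned without transgenic embryo 4 or control embryo 2 and with median centring.

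Dll1 encodes the main Delta ligand of differentiating progenitors. The 5 transgenic embryos read 7.86, 7.87, 7.67, 7.85 and 8.0, and the 5 controls 7.99, 8.0, 7.89, 7.87 and 7.84. Transgenic embryo 3 alone lay below the controls. The difference was -0.073 ± 0.066 (limma adjusted p = 0.86; 95% interval from -0.22 to 0.07), and -0.027 without transgenic embryo 3.

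Dll3 encodes a divergent Delta protein that acts inside the cell on Notch signalling in the same cell and is a target of proneural factors. It read 7.47, 7.24, 7.66, 7.56 and 7.56 in transgenic and 7.31, 7.16, 7.10, 7.43 and 6.78 in control embryos. Every transgenic embryo except the second lay above all controls, and control embryo 5 was the lowest of all 10. The difference was 0.34 ± 0.12, or 1.27-fold (limma unadjusted p = 0.0123, adjusted p = 0.498; 95% interval from 0.089 to 0.59). Without control embryo 5 it was 0.25 (unadjusted p = 0.0217, adjusted p = 0.614).

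Jag1 encodes a Jagged ligand found in progenitor domains and in endothelium. Its values were 7.53, 7.51, 7.23, 7.61 and 7.41 in transgenic and 7.25, 7.40, 7.49, 7.40 and 7.40 in control embryos. Transgenic embryos 1, 2 and 4 lay above the controls and embryo 3 below them, so the group spread in both directions. The difference was 0.069 ± 0.074 (95% interval from -0.094 to 0.23).

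Among the effectors, Hey1 had the smallest p of all members. Hey1 encodes a Hes-related repressor made in progenitors and in vessels. Its log2 intensities were 6.78, 6.94, 6.74, 7.14 and 6.90 in transgenic embryos and 7.08, 7.24, 7.33, 7.07 and 7.46 in controls. Only transgenic embryo 4 reached the control range. The difference was -0.34 ± 0.093, which is 0.793 times the control level (limma unadjusted p = 0.00369, adjusted p = 0.324; 95% interval from -0.54 to -0.13). Without control embryo 5, which had the highest Hey1, it was -0.28 (unadjusted p = 0.00836, adjusted p = 0.414).

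Hes1 encodes the repressor whose level oscillates in progenitors. It had the largest SD among the members in the transgenic group, 0.29, with 7.08, 7.20, 6.82, 7.57 and 7.40 in transgenic and 7.18, 7.25, 7.70, 7.49 and 7.84 in control embryos. Transgenic embryos 1 and 3 lay below all controls, and controls 3 and 5 above all transgenic embryos. The difference was -0.28 ± 0.15 (limma unadjusted p = 0.099, adjusted p = 0.746), with a 95% interval from -0.61 to 0.06. It ranged from -0.37 to -0.18 when single embryos were left out.

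Hes5 encodes the repressor used most often as a readout of Notch activity in radial glia, and its promoter held the 2 separate RBPJ matches shown above. It read 8.30, 8.39, 8.42, 8.33 and 8.19 in transgenic and 8.38, 8.44, 8.36, 8.36 and 8.12 in control embryos. All transgenic embryos lay within the control range. The difference was -0.0059 ± 0.07 (limma adjusted p = 0.991), and its 95% interval from -0.16 to 0.15 leaves room for a small change either way. Its sign turned with quantile normalization and without single embryos, between -0.059 and 0.028.

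Nrarp encodes a small ankyrin-repeat protein that is induced by Notch and limits its signal. The values were 7.73, 7.73, 7.66, 7.86 and 7.92 in transgenic and 7.91, 7.57, 7.66, 7.79 and 7.60 in control embryos. The groups overlapped over most of their range, and the difference was 0.075 ± 0.078 (95% interval from -0.094 to 0.24). The 4 effectors thus had differences from -0.34 to 0.075, with no member past the threshold.

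Some embryos were the lowest or the highest of their group for several members. Transgenic embryo 3 was the lowest of its group for 6 members, Notch2, Dll1, Jag1, Hes1, Hey1 and Nrarp, and the highest for 3, Notch1, Dll3 and Hes5. Transgenic embryo 4 was the highest for 4 members, Notch3, Jag1, Hes1 and Hey1. Control embryo 5 was the highest control for 4 members, Notch2, Notch3, Hes1 and Hey1, and the lowest for 4 others, Notch1, Dll1, Dll3 and Hes5. Against the mean of the other 4 controls it read 0.58 for Notch2, 0.44 for Hes1 and 0.28 for Hey1, and -0.47 for Dll3 and -0.26 for Hes5. For Notch2, Hes1, Dll3 and Hes5 this distance was larger than the gene's difference between the groups, and for Hey1 it was smaller.

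**Figure D2:**
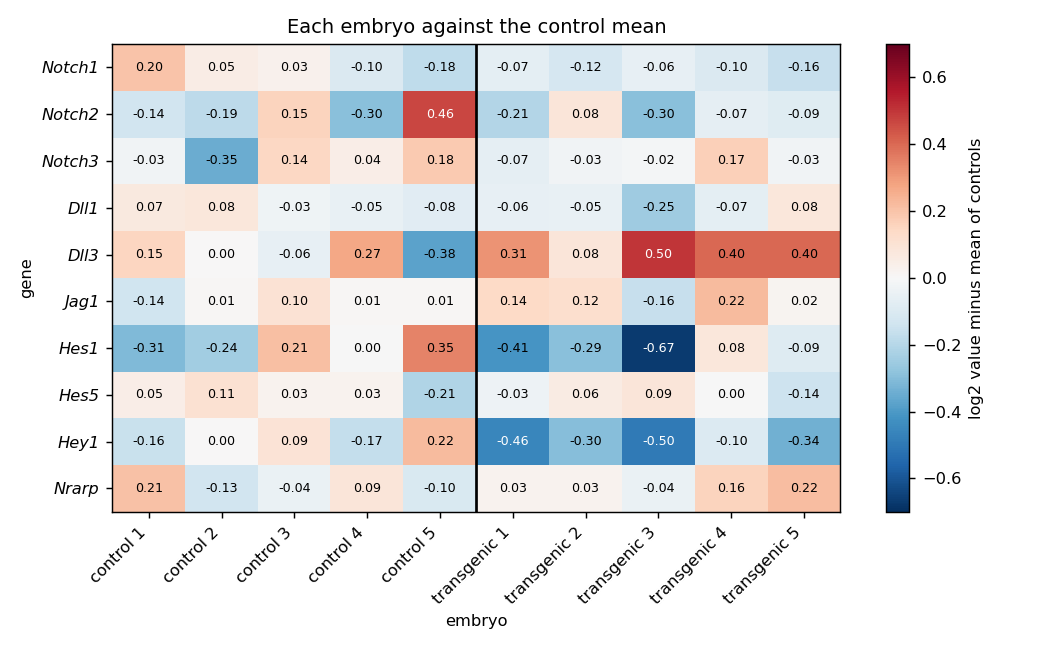
Each embryo's log2 value minus the mean of the 5 controls (colour and printed number) for the 10 members in rows and the 10 embryos in columns. Hey1 was below the control mean in all 5 transgenic embryos, from -0.50 to -0.10, Dll3 above it in all 5, from 0.08 to 0.50, and control embryo 5 held the largest positive value for Notch2, at 0.46.

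The other genes of the pathway numbered 67 measured of 70 listed, with 0 past the threshold in limma. At an unadjusted p below 0.05 there were 8 (11.9%, beside 7.58% of all genes). Of these, 7 were higher and 1 lower in transgenic embryos, beside 4.1% and 3.48% of all genes. The median difference over the 67 genes was 0.034, beside -0.0038 over all genes. Among the 67, 41 were higher and 26 lower, beside 48.1% and 51.9% of all genes. The count of 8 was 5 without transgenic embryo 1, 4 without transgenic embryo 3 and 5 without transgenic embryo 5.

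Of 6 further receptors and ligands, 3 were higher and 3 lower, and none had an unadjusted p below 0.05. Dlk1, a Delta-like protein without the usual receptor-binding domain, differed by 0.66 ± 0.40, with controls from 7.15 to 9.24. Its difference was 0.35 without control embryo 5 and 0.43 without control embryo 3. Jag2 differed by 0.06 ± 0.062. Of 6 genes for ligand endocytosis, which arms the ligand, 3 were higher and 3 lower. The ubiquitin ligase gene Mib1 differed by 0.086 ± 0.051 and the epsin gene Epn2 by 0.072 ± 0.062. Of 5 genes for receptor glycosylation, 3 were higher and 2 lower. The fringe gene Rfng differed by 0.11 ± 0.10 and the fucosyltransferase gene Pofut1 by -0.069 ± 0.063. None of these 6 genes had an unadjusted p below 0.05.

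Receptor cleavage genes had 7 of 9 members higher in transgenic embryos, beside 48.1% of all genes, with a median difference of 0.0555. Furin encodes the protease that cuts the maturing receptor. It read 5.75, 5.82, 5.84, 5.90 and 5.95 in transgenic and 5.65, 5.69, 5.62, 5.64 and 5.80 in control embryos. Only control embryo 5 reached the transgenic range. The difference was 0.17 ± 0.057 (limma unadjusted p = 0.0109, adjusted p = 0.492). Ncstn, a subunit of gamma-secretase, differed by 0.10 ± 0.07.

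In the nuclear complex, 9 of 16 genes were higher and 7 lower. Maml3 encodes a Mastermind coactivator of the Notch and RBPJ complex. It read 6.65, 6.56, 6.58, 6.62 and 6.73 in transgenic and 6.48, 6.49, 6.32, 6.47 and 6.39 in control embryos. It was the only one of the 67 genes whose groups did not overlap, beside 1.6% of all genes. The difference was 0.19 ± 0.055, or 1.14-fold (limma unadjusted p = 0.00435, adjusted p = 0.344). The corepressor gene Tle4 differed by 0.19 ± 0.087 (unadjusted p = 0.0493), and without control embryo 5 by 0.16 (unadjusted p = 0.103). With single embryos left out, its limma unadjusted p stayed below 0.05 only without transgenic embryo 2 (0.0134) or control embryo 1 (0.0158). It was also above 0.05 with a replicate block, array weights, median centring, dim genes left out and all probe sets tested. Among 9 negative regulators 6 were higher, with Dtx4, of the Deltex family, at 0.15 ± 0.055 (unadjusted p = 0.0167) and Fbxw7, which marks the Notch intracellular domain for destruction, at -0.18 ± 0.097 (unadjusted p = 0.0956). Without control embryo 5 Fbxw7 differed by -0.27 (unadjusted p = 0.00245), with array weights by -0.22 (unadjusted p = 0.0207), and with the mean of its probe sets by -0.10 (unadjusted p = 0.149).

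Of 9 other Hes and Hey genes 4 were higher and 5 lower. Bhlhe40, a related repressor, differed by -0.18 ± 0.077 (unadjusted p = 0.0361), and by -0.11 without control embryo 5 (unadjusted p = 0.071). Its limma unadjusted p was also above 0.05 without transgenic embryo 1 (0.0794), 2 (0.0668), 3 (0.0562) or 5 (0.0541). Bhlhe41, a dim gene with a mean of 2.94, differed by 0.12 ± 0.058. Hey2, the close relative of Hey1 and named after its values were seen, read 5.32, 5.34, 5.28, 5.22 and 5.46 in transgenic and 5.56, 5.40, 5.63, 5.38 and 6.52 in control embryos. Here 4 of 5 transgenic embryos lay below all controls, as for Hey1, and control embryo 5 was far above the rest. The difference was -0.37 ± 0.18 (unadjusted p = 0.0621, adjusted p = 0.682), and without control embryo 5 it was -0.17 (unadjusted p = 0.0398).

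The list of proneural genes holds some that Hes and Hey proteins repress and some that activate Dll1 and Dll3. Of its 7 measured genes 6 were higher in transgenic embryos, beside 48.1% of all genes, with a median difference of 0.15. Of these, 3 had an unadjusted p below 0.05 and none passed, where 4.1% of all genes were higher at that p. Neurog2, a proneural factor of the cortex, differed by 0.21 ± 0.082 (unadjusted p = 0.0248), with 4 of 5 transgenic embryos above all controls. Its unadjusted p was 0.0505, 0.0646 and 0.0558 without transgenic embryos 1, 3 and 5, and 0.0672 without control embryo 1. Neurod4 differed by 0.39 ± 0.12 (unadjusted p = 0.00857, adjusted p = 0.443). It was a dim gene: its mean of 4.66 lay below 5.03, the 40th percentile of gene means. Its adjusted p ranged from 0.0645 to 0.698 over the 18 alternatives that kept it. The lowest came without control embryo 3, which had the highest Neurod4 of the controls. Neurod1, named after its values were seen, differed by 0.23 ± 0.096 (unadjusted p = 0.0345), and its unadjusted p was above 0.05 without transgenic embryo 2, 3 or 5 or control embryo 1, 2 or 5, at 0.0559 to 0.0914. Dll1 differed by -0.073 ± 0.066. These genes, Dll1 and Dll3 were read in the same embryos and are not independent of each other.

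**Figure D3:**
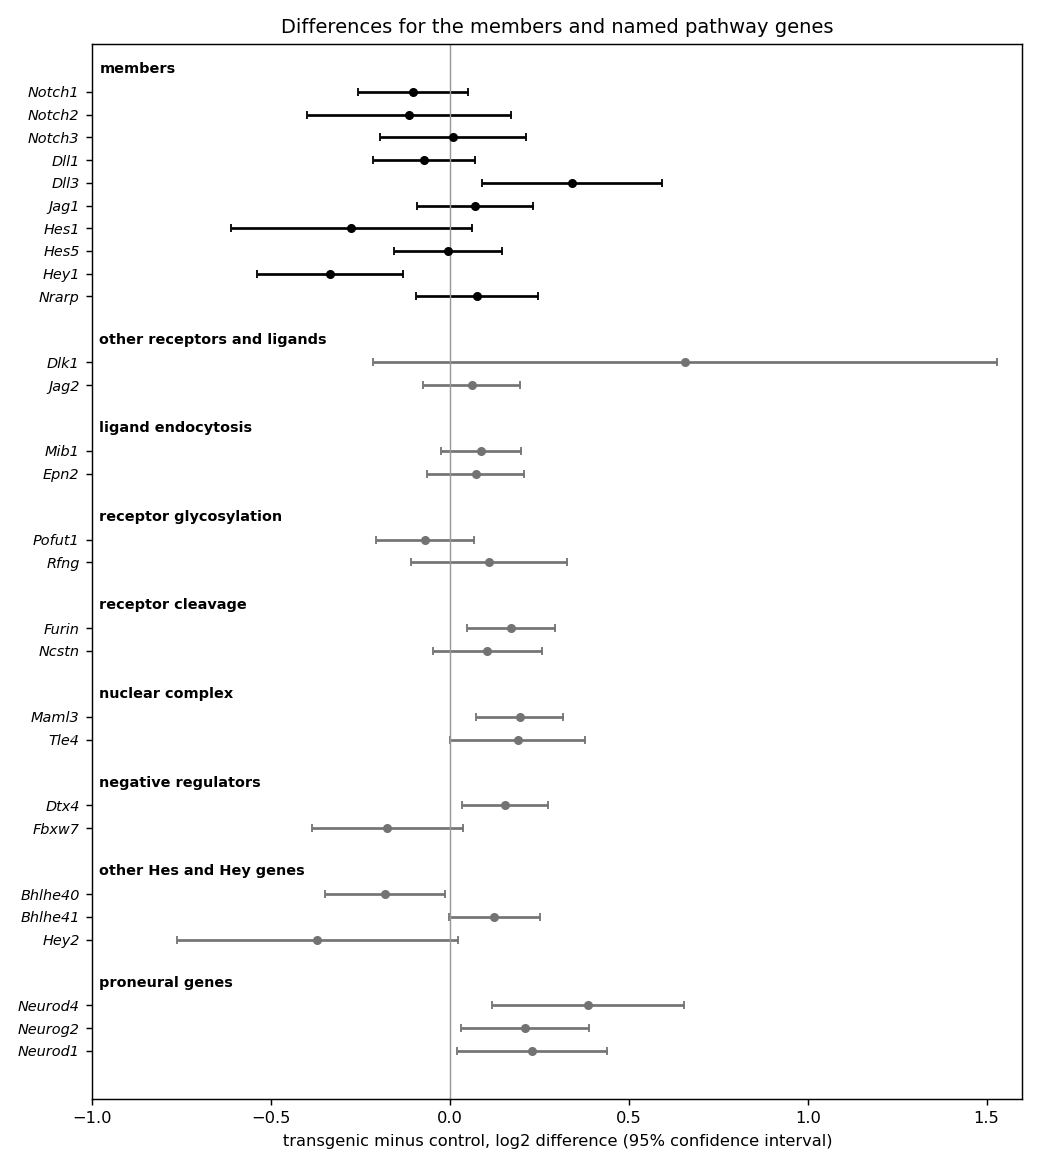
Log2 difference between transgenic and control embryos (horizontal axis, with 95% confidence intervals from limma) for the 10 members in black and the named pathway genes in grey, by list. The intervals of Hey1 (-0.54 to -0.13) and Dll3 (0.089 to 0.59) lie off 0 before adjustment, and no gene shown passed after adjustment over all genes.

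Markers of the cells and regions the dissection could hold varied between embryos, and their part in the differences above was not tested. Over all genes 48.1% were higher and 51.9% lower in transgenic embryos. The genes of a list were read in the same embryos and are not independent of each other. Of 8 measured forebrain genes, 7 were lower and 1 higher in transgenic embryos, and the per-embryo list mean ran from 6.77 to 7.10 in transgenic and from 6.43 to 7.58 in control embryos. Lhx2, a forebrain progenitor factor, had values from 8.99 to 9.95 over all embryos, and control embryo 5 read low for the ventral factor Dlx1, at 4.82. The 9 thalamus genes were all higher in transgenic embryos, 7 of them at an unadjusted p below 0.05, beside 4.1% of all genes, and none past the threshold. The differences of these 9 ran from 0.178 to 2.26 with a median of 0.865, beside -0.0038 over all genes. For 2 of the 9 the groups did not overlap, beside 1.6% of all genes. Their list means ran from 6.71 to 7.55 in transgenic and from 5.58 to 6.98 in control embryos, with 4 of 5 transgenic embryos above all controls. The exception, transgenic embryo 4, was also the one whose Hey1 lay in the control range. Among the controls, embryos 3 and 4 had the highest thalamus list means, 6.73 and 6.98. Their Hey1 values were 7.33 and 7.07, in a control range of 7.07 to 7.46. A relation between the list and Hey1 was not tested. At the same p, 4 of 11 genes of dividing cells were lower, and of 15 radial glia genes 2 were lower and 1 higher, beside 3.48% of all genes that were lower. Of the forebrain genes 1 of 8 was lower at that p, and of the neuron genes 0 of 15 differed at it. Among 15 neuron genes 14 were higher, and the list mean ran from 8.33 to 8.92 in transgenic and from 8.35 to 8.65 in the first 4 controls, with 7.37 in control embryo 5.

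All 11 dividing-cell genes were lower, beside 51.9% of all genes, with list means from 8.07 to 8.56 in transgenic and 8.46 to 8.67 in control embryos. Their lowest values belonged to transgenic embryos 1 and 3, at 8.07 and 8.19, which also had the lowest Hes1 and Hey1 values and the highest neuron list means, 8.92 and 8.91. Of 15 radial glia genes 7 were higher and 8 lower, and 3 of 5 transgenic embryos had a list mean below all controls, within the narrow span of 8.09 to 8.23 over all embryos. Embryos 1 and 3 were also the lowest transgenic ones for the radial glia list, at 8.11 and 8.09, and for the erythroid list, at 6.84 and 6.81. This describes transgenic embryos 1 and 3 alone. Control embryo 1, with the lowest Hes1 of the controls at 7.18, had a radial glia list mean of 8.23. The part of these lists in the result was not tested.

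Notch genes are also expressed in vessels. The 12 endothelial genes had list means from 6.10 to 6.45 in transgenic and 6.13 to 6.66 in control embryos, with 3 higher and 9 lower. The 7 pericyte genes ran from 5.54 to 5.81 and from 5.48 to 5.78, with 4 higher and 3 lower. The mesenchyme list of 9 genes, 3 higher and 6 lower, ran from 6.42 to 7.13 in transgenic and from 6.15 to 7.04 in the first 4 controls. It was 8.20 in control embryo 5, where Col1a1 read 10.34 and Notch2, Notch3, Hes1 and Hey1 were the highest of the controls. Mesenchyme was not alone in this. Of all embryos, control embryo 5 also had the highest endothelial (6.66), erythroid (8.19) and dividing-cell (8.67) list means. Its forebrain (6.43), thalamus (5.58) and neuron (7.37) list means were the lowest. A relation between these lists and the members was not tested. The 7 erythroid genes ran from 6.81 to 7.73 and from 6.82 to 8.19, with 1 higher and 6 lower. The 9 microglia genes ran from 4.94 to 5.07 and from 4.77 to 5.07. All 9 were higher, by 0.02 to 0.186, beside 48.1% of all genes. In none of these vascular, mesenchymal and blood lists did a gene have an unadjusted p below 0.05.

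**Figure D4:**
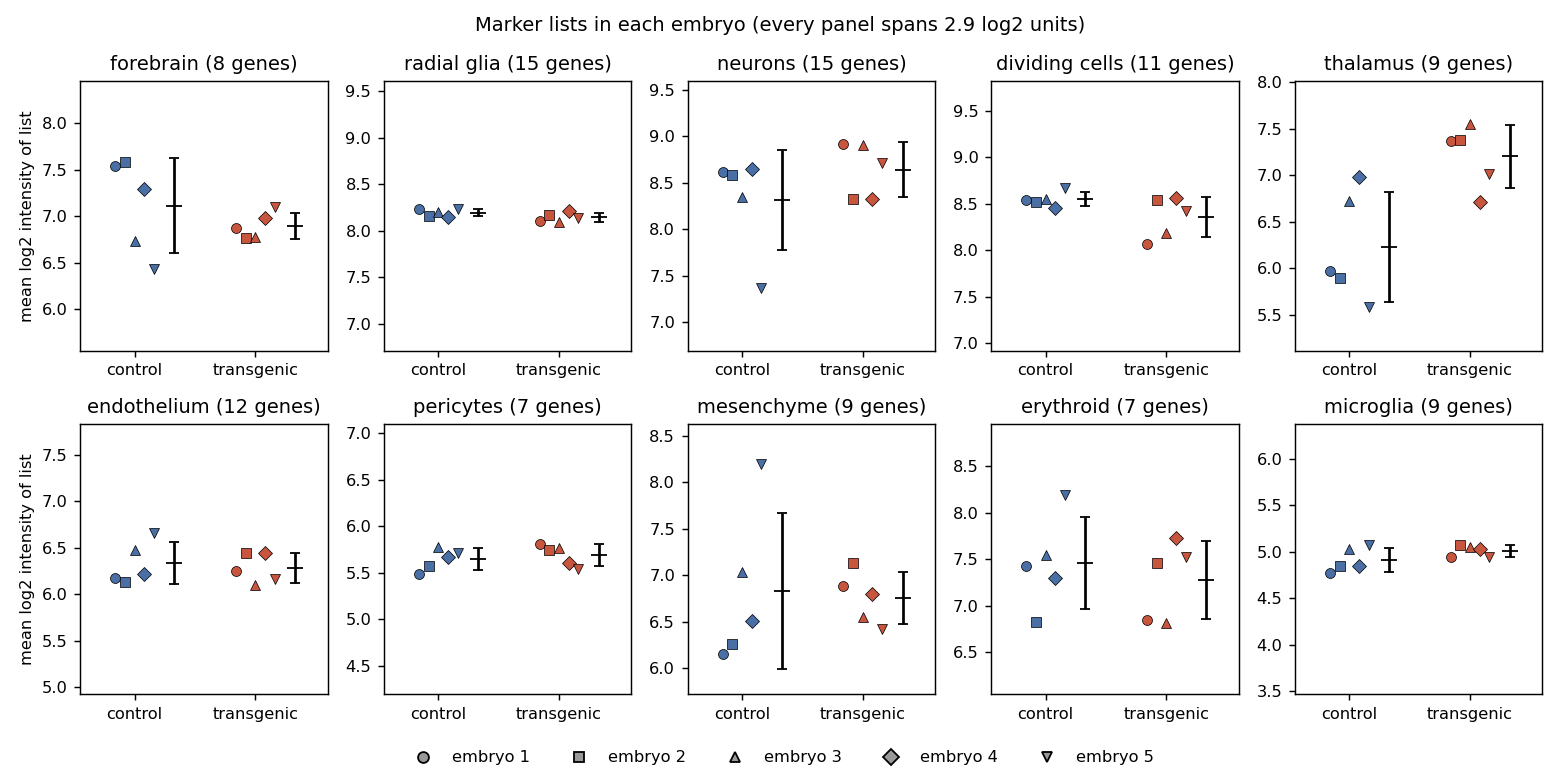
Mean log2 intensity of each marker list (vertical axis) in every embryo, with a symbol for each embryo number and the mean and SD of each group. Control embryo 5 lies apart for neurons (7.37) and mesenchyme (8.20), and the thalamus list is above all controls in 4 of 5 transgenic embryos.

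Genes with the most similar pattern were sought for Hey1 and Dll3, the members with the smallest p, by Pearson r over the 10 arrays after each group's mean was removed. The values of different genes share the same arrays, and r is a description. For Hey1 the highest were E130114P18Rik at 0.973, Ppp1r8 at 0.968, Dpy19l1 at 0.961, Hsd17b4 at 0.955 and Cse1l at 0.954. For Dll3 they were the kinesin gene Kif3a at 0.95, the transcription factor gene Lhx5 at 0.946, Mir127 at 0.942, Brd8dc at 0.941 and Katnal1 at 0.938. No member of the pathway lists was among them.

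The direction of Notch1, Dll1, Dll3, Jag1, Hes1, Hey1 and Nrarp was the same in all 19 alternatives, and 0 of 10 members passed in any of them. A member's direction could turn only with an embryo left out, array weights, quantile normalization or median centring. The remaining alternatives change p-values or the threshold and leave a member's difference as it was. Hey1 ranged from -0.39 to -0.28 with adjusted p from 0.181 to 0.626, and Dll3 from 0.25 to 0.41 with adjusted p from 0.265 to 0.813.

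**Figure D5:**
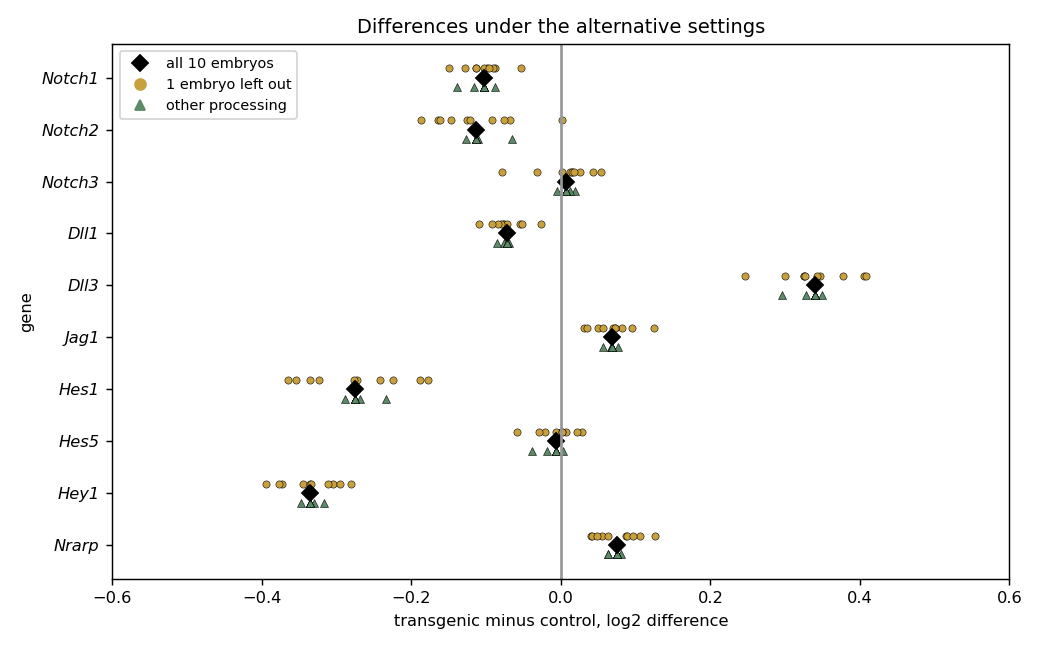
Log2 difference between transgenic and control embryos (horizontal axis) of each member with all 10 embryos (diamonds), with 1 embryo left out (circles) and with other processing (triangles). Hey1 and Dll3 stay on their side of 0 in each, while Notch2, Notch3 and Hes5 cross it. Among the triangles, only array weights, quantile normalization and median centring could move a difference.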

How the data were processed

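RNA from 10 embryonic forebrains was hybridized to Affymetrix arrays, 1 per embryo. The authors deposited log2 intensities of 35556 probe sets. The submitters' processing notes name Affymetrix Expression Console as their software; its version, algorithm, background correction and genome build are not given in the sources used here. Near-equal array medians show that the arrays were brought to one scale. No further normalization was applied. The platform's gene table named 1 gene for 21789 probe sets, several for 1621 and none for 12146; the brightest probe set stood for each of 19938 genes. Groups came from the titles. The comparison used limma 3.58.1 (R 4.3.3) with group as the only term and moderated variances; tests were two-sided, p-values were adjusted by Benjamini-Hochberg across every gene, and 0.05 was the threshold. The fit was tested on simulated data. Promoters came from RefSeq (GRCm38.p6). The members and lists were chosen with earlier results of these data known. Named were all members, the 2 pathway genes with the smallest p in each list, the 2 brightest markers of a list where a result touches them, and the 5 genes most like the 2 members with the smallest p; Hey2, Neurod1 and Foxo3 were added. Alternatives were a replicate block, each embryo left out, quantile normalization, array weights, trend and robust variances, centring on the median, dim genes left out (below the 40th percentile), mean of probe sets, all probe sets tested, and a threshold of 0.1. Replicate numbers were not used as pairs.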

Additional observations from a re-analysis of the deposited data

Results flagged for a closer look

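In 12 of 116 sets of 5 embryos, counted over the members, the named genes and the marker lists, 1 embryo lay apart from the other 4. The measure was Dixon's ratio at its 95% critical value, which chance passes in about 1 in 20 independent sets. These sets share the same embryos, and some genes were named for a small p or after their values were seen. The share of 1 in 20 is therefore not the one to expect here. Among the members there were 2, in 20 sets. Notch3 was 7.82 in transgenic embryo 4, against 7.59 to 7.64 in the rest of its group. Hes5 was 8.12 in control embryo 5, against 8.36 to 8.44 in the rest of its group. Notch3 without that embryo differed by -0.032 between the groups, and Hes5 without control embryo 5 by -0.059. Control embryo 5 accounted for 6 of the 12. Hey2 was 6.52 in control embryo 5, against 5.38 to 5.63 in the rest of its group. Bhlhe40 was 5.67 in control embryo 5, against 5.29 to 5.33 in the rest of its group. Bhlhe41 was 2.72 in control embryo 5, against 2.9 to 2.95 in the rest of its group. Tubb3 was 9.34 in control embryo 5, against 10.21 to 10.55 in the rest of its group. The neuron list mean was 7.37 in control embryo 5, against 8.35 to 8.65 in the rest of its group. Jag2 was 5.85 in transgenic embryo 2, against 6.06 to 6.14 in the rest of its group. Mib1 was 8.51 in control embryo 2, against 8.61 to 8.65 in the rest of its group. Neurod4 was 4.96 in control embryo 3, against 4.29 to 4.41 in the rest of its group. Top2a was 9.97 in control embryo 2, against 10.03 to 10.04 in the rest of its group. Csf1r was 5.85 in transgenic embryo 2, against 5.5 to 5.57 in the rest of its group.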

How the results depend on the processing

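No member and no other pathway gene passed in any of the 19 alternatives, and the median difference over the members stayed between -0.066 and -0.026. Hey1 and Dll3 kept an unadjusted p below 0.05 in all 18 alternatives to the fit, with a further member in 3 of them. Hes5 turned to 0.0024 with quantile normalization and Notch3 to -0.0058 with median centring. With 1 embryo left out, Hes5 ranged from -0.059 to 0.028, Notch3 from -0.079 to 0.053 and Notch2 from -0.19 to 0.00104, the last without control embryo 5. The count of all genes past the threshold, 21, was 39 with array weights, 9 with all probe sets tested and 55 at a threshold of 0.1. With 1 embryo left out it ranged from 7 to 58: it was 7, 10, 12 and 8 without transgenic embryos 1, 2, 4 and 5, and 8, 10, 11, 58 and 37 without control embryos 1 to 5. The count of other pathway genes at an unadjusted p below 0.05, 8, was 4 to 8 with 1 embryo left out and 4 to 10 over all alternatives. With the replicate number as a block, 2 genes passed and no member did. Same-numbered embryos correlated from -0.25 to 0.24 in their deviations from the group means, and in 0 of 5 cases was the same number the best match, so the numbers were not treated as pairs. The cause of these shifts was not tested. The choice of probe set could not matter, since each member had 1. The table gives no detection calls, so signal over background is unknown, and 5 embryos per group limit what could be detected.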
